A study of Mus musculus with 6 samples.

Results

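The PARP family consists of enzymes that take ADP-ribose from NAD+ and attach it to proteins or nucleic acids. Its 10 members described here, Parp1, Parp2, Parp3, Parp4, Parp6, Parp8, Parp9, Parp10, Parp12 and Parp14, were picked by gene symbol from the 55487 gene identifiers of each deposited table, and all 10 were found. Polyadenylated RNA was sequenced from naive CD4+ T cells, the helper T cells that have not yet met their antigen. The cells were taken fresh from the spleen (3 libraries) or from the mesenteric lymph nodes (mLN, 3 libraries), which drain the gut. Every library came from untreated wild-type (WT) mice of the C57BL6/J strain, so organ is the only labelled difference. The labels give no age or sex, do not say how naive cells were isolated, and do not say whether replicates came from separate animals. The p-values therefore rest on the spread between libraries of an organ, and that spread may be technical only.

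PARP1 and PARP2 sit on DNA breaks and build chains of ADP-ribose that call in repair proteins, whereas most other members attach single units. PARP9, PARP10, PARP12 and PARP14 are known as interferon-inducible, and several of them act against viruses. In T cells, PARP14 is known as a partner of STAT6 in the response to IL-4.

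Library totals ran from 13205499 to 20054205 expected counts, and a floor of 3 counts corresponded to between 0.149 and 0.225 CPM (reads of a gene relative to the library size, adjusted by TMM for library composition). All 10 members lay well above that floor and passed the filter on low counts, in both organs. The T cell markers Cd3d, Cd3e, Cd3g, Cd4 and Cd28 summed to between 2337 and 2491 CPM in spleen and between 2092 and 2162 CPM in mLN, and all 5 were detected in every library (1 rose and 3 fell). Among markers of other cells, those of myeloid and B cells were lower in mLN. The 6 B cell markers summed to between 28.7 and 32.7 CPM in spleen and between 8.63 and 13.8 CPM in mLN, and all 6 fell. The 6 neutrophil markers gave 30.8 to 37.1 CPM against 0.150 to 1.19 CPM (5 of 5 tested fell, Elane at 0 throughout), and the 8 monocyte and macrophage markers 34.1 to 36.2 CPM against 3.15 to 4.16 CPM (4 of 5 tested fell). Dendritic cell markers summed to 4.80 to 9.69 CPM against 0.751 to 1.10 CPM (2 of 3 tested fell), NK cell markers to 1.74 to 3.29 against 0.123 to 1.83 CPM, CD8 T cell markers to 16.1 to 17.8 against 12.5 to 20.4 CPM, and erythroid markers to 0 to 0.374 against 0.149 to 0.676 CPM. Of the 4 stromal markers only Pecam1, which T cells also express, was tested, and it fell from 236 to 248 CPM in spleen libraries to 202 to 218 in mLN libraries. Col1a1 had 0 to 17 counts a library, Col3a1 0 to 1 and Pdpn 0. The part of these cells in the differences below was not tested. In bulk samples, fewer cells of a type and less RNA per cell cannot be told apart.

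Of the 10 family members, 5 were higher in mLN, 0 were lower and 5 did not pass the test. Parp1, Parp4, Parp10, Parp12 and Parp14 rose, by 1.35-fold to 1.59-fold, while Parp2, Parp3, Parp6, Parp8 and Parp9 did not pass. The test was edgeR's quasi-likelihood F test over all 12486 tested genes at an adjusted p under 0.05. By the same rule 16.1% of all tested genes were called higher in mLN and 13.5% lower (2010 and 1689 genes), 29.6% in either direction. The median log2 fold change (mLN minus spleen) was 0.32 over the members and -0.01 over all genes tested. In 5 of the 10 members, the same 5 that were called, every mLN library exceeded every spleen library. Of all tested genes, 21.5% were separated in that direction. No member was separated the other way, as 20.3% of all tested genes were.

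**Figure D1:**
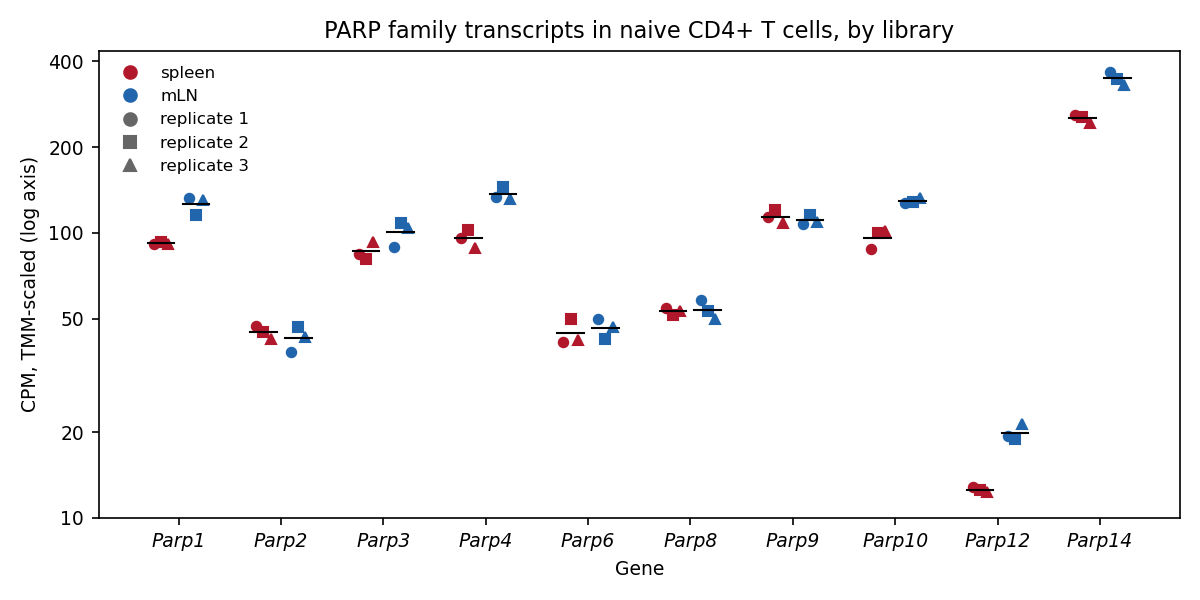
Level of each PARP family member in each library, as TMM-scaled CPM on a log axis. Red is spleen, blue is mLN, and the black bar is the mean of 3 libraries. The marker shape gives the replicate number, which was not used to pair libraries in the main fit. The blue points of Parp1, Parp4, Parp10, Parp12 and Parp14 all lie above the red ones, and those of the other members overlap with them.

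Promoter windows from RefSeq (build GRCm38.p6, 250 bases before to 50 after the annotated start) were given for 7 of the 10 members. Parp9, Parp10 and Parp14 had none, so Parp12 was the only member known as interferon-inducible that could be searched. The windows of the 3 called members among them are printed 5′ to 3′ on the strand of the gene, because these genes rose together while only some of the family is known to answer to interferon. They lie at chr1:180568641-180568940 (plus strand) for Parp1, chr14:56575369-56575668 (plus strand) for Parp4 and chr6:39118300-39118599 (minus strand) for Parp12. Capitals mark matches to the core of the interferon-stimulated response element (GAAA, any 2 bases, GAAA), searched on both strands.
Parp1: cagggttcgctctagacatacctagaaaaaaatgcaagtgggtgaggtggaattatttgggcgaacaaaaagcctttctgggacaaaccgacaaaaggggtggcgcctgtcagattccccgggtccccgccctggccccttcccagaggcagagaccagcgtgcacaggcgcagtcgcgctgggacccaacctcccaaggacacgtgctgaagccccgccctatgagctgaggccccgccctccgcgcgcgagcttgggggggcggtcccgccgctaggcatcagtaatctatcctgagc
Parp4: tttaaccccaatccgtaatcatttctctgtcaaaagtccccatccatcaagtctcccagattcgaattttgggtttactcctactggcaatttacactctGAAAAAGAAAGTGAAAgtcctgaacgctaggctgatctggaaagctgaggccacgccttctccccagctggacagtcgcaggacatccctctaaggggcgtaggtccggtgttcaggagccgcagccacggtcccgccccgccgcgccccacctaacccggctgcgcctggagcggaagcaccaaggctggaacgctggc
Parp12: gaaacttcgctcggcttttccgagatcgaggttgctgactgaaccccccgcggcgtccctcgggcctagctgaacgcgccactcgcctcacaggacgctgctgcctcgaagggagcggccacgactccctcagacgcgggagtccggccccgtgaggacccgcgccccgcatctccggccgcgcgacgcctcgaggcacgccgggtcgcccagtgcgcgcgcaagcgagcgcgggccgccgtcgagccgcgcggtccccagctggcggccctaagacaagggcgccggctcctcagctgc
Parp4 held 2 matches to this core, GAAAAAGAAA and GAAAGTGAAA, which overlap each other and begin 150 and 144 bases before the start. The windows of Parp1, Parp2, Parp3, Parp6, Parp8 and Parp12 held 0. Among all 32851 windows of the table, 3.44% held at least 1 match. The gamma-interferon activated site, TTCNNNGAA, searched on both strands, had 0 matches in all 7 windows, against 8.30% of the table. A match is a description of the letters and not evidence of binding. CpG dinucleotides numbered 20 in the Parp1 window, 17 in that of Parp4 and 46 in that of Parp12, where the median window of the table held 7. The windows of members that were not called held 25 (Parp2), 16 (Parp3), 33 (Parp6) and 37 (Parp8), so the called members were not set apart.

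Among the members that act at DNA breaks, Parp1 rose. Parp1 (ENSMUSG00000026496), a protein-coding gene on the plus strand of chromosome 1 between positions 180568924 and 180601254 of mm10, encodes the most active chain-building enzyme of the family. It was at 91.7, 93.0 and 91.2 CPM in spleen replicates 1, 2 and 3, and at 132, 115 and 131 CPM in the mLN replicates. The spleen libraries lay close together and all mLN libraries lay above them, with the lowest at replicate 2. The log2 fold change was 0.45 (standard error 0.0784, adjusted p = 1.42e-04, edgeR), and the means were 92.0 ± 0.935 and 126 ± 9.37 CPM (SD, n = 3 each). On log2 TPM with each library centred on its median, the difference was 0.28 and the call was lost (adjusted p = 0.131, limma).

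Parp2, the second enzyme that makes chains at breaks, was at 47.0, 45.0 and 42.5 CPM in spleen and 38.2, 46.7 and 43.3 CPM in mLN. The groups overlapped, and the log2 fold change was -0.07 (standard error 0.105, adjusted p = 0.670, edgeR), a sign that turned with the length trend removed (0.04) or the GC trend removed (0.02). The ratio of Parp1 to Parp2 within a library, on the log2 scale, was 0.966, 1.05 and 1.10 in spleen and 1.79, 1.30 and 1.59 in mLN. All mLN ratios exceeded all spleen ratios, with a mean difference of 0.525 (exact two-sided permutation p = 0.10, the smallest that 3 against 3 libraries allow; 0.10 after adjustment over the 3 ratios computed, which were chosen after the values were seen).

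Parp3, which helps to join double-strand breaks, was at 84.6, 81.1 and 93.0 CPM in spleen and at 89.1, 108 and 104 CPM in mLN. The groups overlapped through mLN replicate 1, and the difference of 0.22 on the log2 scale (standard error 0.0890) did not pass (adjusted p = 0.0693, edgeR). It passed without spleen replicate 3 (0.0361) or without mLN replicate 1 (0.0221), and did not without any other library (0.166 to 0.288). With the GC trend removed the difference was 0.10 (adjusted p = 0.344). In the deposited TPM values, which divide by transcript length, Parp3 was at 49.3, 46.6 and 55.9 in spleen and at 69.2, 86.7 and 94.7 in mLN, with no overlap. By this measure 35.1% of all tested genes were higher in mLN without overlap, since the median log2 TPM difference over all genes was shifted to 0.21. On log2(TPM + 1) the difference of Parp3 was 0.70 (adjusted p = 0.00651, limma). With the values centred on each library's median it was 0.46 (adjusted p = 0.0525).

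The larger TPM difference of Parp3 came with a shorter mean transcript. The deposited tables give, for each gene and library, a transcript length weighted by the estimated abundance of its isoforms, so a change in this length reports a change in the estimated isoform mix. For Parp3 it was 2320, 2331 and 2251 nt in spleen and 2116, 2073 and 1819 nt in mLN, so every mLN library was shorter. Parp1 went the other way, with 2976, 3348 and 3426 nt in spleen and 3633, 3714 and 3551 nt in mLN. Among the 10018 tested genes whose length varied between libraries, 6.13% were longer and 4.60% shorter in mLN without overlap, against 1 member in each direction. Of these 3 genes Parp2 had the widest spread within an organ, at 1403, 1801 and 993 nt in spleen and 1511, 1679 and 1581 nt in mLN. Its TPM followed, at 49.3, 34.8 and 67.9 in spleen, although its counts differed little. The annotation lists 8 transcripts for Parp1, 8 for Parp2 and 9 for Parp3, all of which are in the deposited tables. Estimates per transcript were not analysed here.

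**Figure D2:**
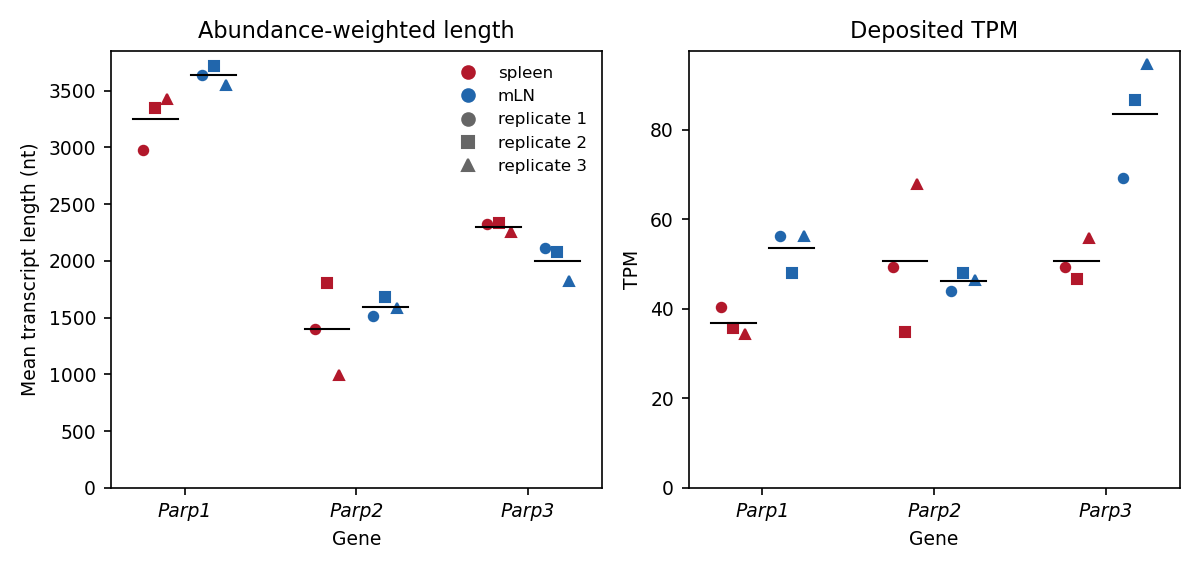
Mean transcript length in nucleotides (left) and deposited TPM (right) of Parp1, Parp2 and Parp3 in each library; red is spleen, blue is mLN, black bars are means of 3 libraries, and both axes start at 0. Parp1 was longer in mLN (3551 to 3714 nt against 2976 to 3426 nt), Parp3 shorter (1819 to 2116 nt against 2251 to 2331 nt), and the spleen libraries of Parp2 spread from 993 to 1801 nt with TPM between 34.8 and 67.9.

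Parp4 and its partners in the vault, a large ribonucleoprotein particle of the cytoplasm, were called higher in mLN on counts, the partners less firmly. By the same rule 16.1% of all tested genes were called higher, and 40.0% of those within 1.25-fold of the length of Parp4. Parp4 (ENSMUSG00000054509; chromosome 14, plus strand, positions 56575619 to 56659794 of mm10), the ADP-ribosyltransferase of the vault, was at 96.1, 103 and 88.7 CPM in spleen and 133, 145 and 131 CPM in mLN. All mLN libraries were above all spleen libraries, and the log2 fold change was 0.51 (standard error 0.0792, adjusted p = 4.49e-05, edgeR). Tep1, an RNA-binding protein shared by vaults and telomerase, rose from 44.1 ± 4.38 to 62.6 ± 3.58 CPM (SD, n = 3 each; adjusted p = 4.74e-04, edgeR). Mvp, the major vault protein that forms the shell, was at 35.6, 43.7 and 44.6 CPM in spleen and 50.3, 48.3 and 52.9 CPM in mLN. It passed narrowly at 1.22-fold (adjusted p = 0.0442, edgeR), and its call was lost without any 1 library other than spleen replicate 3, with adjusted p-values from 0.0668 to 0.241. It was also lost with upper-quartile factors (0.0897), with the length trend removed (0.163) and with the GC trend removed (0.171). With the length trend removed, Parp4 went from 0.51 to 0.26 on the log2 scale (adjusted p = 0.0154, edgeR) and Tep1 from 0.50 to 0.31 (0.0247). The call of Tep1 was lost on log2 TPM (adjusted p = 0.402) and that of Parp4 on median-centred log2 TPM (0.119).

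Parp6 and Parp8, mono-ADP-ribosyltransferases of which little is known in T cells, did not pass. Parp6 was at 41.3, 49.8 and 42.1 CPM in spleen and 49.7, 42.3 and 46.9 CPM in mLN. Parp8 was at 54.3, 51.5 and 53.3 CPM in spleen and 58.3, 53.0 and 49.7 CPM in mLN. The libraries of both genes overlapped between organs, and their log2 fold changes were 0.06 and 0.02 with standard errors of 0.106 and 0.0937 (adjusted p = 0.725 and 0.923, edgeR). The sign of the Parp8 difference turned with upper-quartile factors (-0.03), with the length trend removed (-0.06) and without spleen replicate 2 (-0.02) or mLN replicate 1 (-0.05).

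Of the 4 members known as interferon-inducible, Parp10, Parp12 and Parp14 rose and Parp9 did not pass. Beside them, 16.1% of all tested genes were called higher and 13.5% lower. Among genes within 1.25-fold of the length of Parp14, 43.7% were called higher. Parp14 (ENSMUSG00000034422) took the most counts of all members, at 259, 254 and 244 CPM in spleen and 367, 348 and 330 CPM in mLN. Every mLN library was above every spleen library by a wide margin, and the log2 fold change was 0.47 (standard error 0.0607, adjusted p = 5.82e-06, edgeR). Parp10 (ENSMUSG00000063268; chromosome 15, minus strand, positions 76231174 to 76243441), which attaches single ADP-ribose units, was at 87.5, 99.6 and 101 CPM in spleen and 128, 128 and 133 CPM in mLN. Its log2 fold change was 0.43 (standard error 0.0784, adjusted p = 2.57e-04, edgeR). The 3′ end of Parp10 shares 205 exonic bases with Plec on the same strand, 4.79% of its exonic bases, so reads there are uncertain.

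Parp12 (ENSMUSG00000038507; chromosome 6, minus strand, positions 39086410 to 39118349 of mm10), which restrains viral translation, was the least abundant member and had the highest fold change. It was at 12.9, 12.5 and 12.3 CPM in spleen and at 19.4, 18.8 and 21.4 CPM in mLN. These values rest on 182, 220 and 197 counts in spleen and 316, 251 and 432 counts in mLN. The spleen libraries were nearly equal and all mLN libraries were higher, with a log2 fold change of 0.67 and the widest standard error of the family, 0.152 (adjusted p = 0.00204, edgeR). On median-centred log2 TPM the difference was 0.42 and the call was lost (adjusted p = 0.137, limma).

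As counted, Parp9 did not rise with Parp14 or with its own partner gene Dtx3l, with which it shares reads whose division is uncertain (next paragraph). PARP9 works in a complex with the ubiquitin ligase DTX3L, and the genes lie head to head on chromosome 16 of mm10, with Dtx3l on the minus strand (35926511 to 35939151) and Parp9 on the plus strand (35938470 to 35972605). Parp14 lies nearby on the minus strand (35832874 to 35871544). Parp9 was at 113, 120 and 108 CPM in spleen and at 107, 116 and 109 CPM in mLN, with overlap and a log2 fold change of -0.04 (standard error 0.0764, adjusted p = 0.745, edgeR). That sign turned on log2 TPM (0.17) and after removal of a trend on GC content (0.04), neither past the test. Dtx3l was at 150, 153 and 158 CPM in spleen and at 208, 226 and 203 CPM in mLN, and rose by 0.47 on the log2 scale (standard error 0.0673, adjusted p = 2.0e-05, edgeR). The log2 ratio of Dtx3l to Parp9 was 0.408, 0.347 and 0.548 in spleen and 0.954, 0.967 and 0.894 in mLN, a mean difference of 0.504. The log2 ratio of Parp14 to Parp9 differed by 0.505, from a mean of 1.15 to 1.65. Neither ratio overlapped between organs, and each gave an exact permutation p of 0.10, the smallest possible. Both ratios were chosen after the values were seen, so this p lends them no support.

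The division of reads between Parp9 and Dtx3l is uncertain. They share 458 exonic bases, 9.40% of those of Parp9, on opposite strands. Their expected counts were fractional in every library, for example 1600.97 and 2124.03 in spleen replicate 1, and the sum of both was a whole number (within 0.01 counts) in 6 of 6 libraries. The strand setting of the counting is not given in the sources used here. Parp9 took 43.0%, 44.0% and 40.6% of the summed counts in spleen and 34.1%, 33.9% and 35.0% in mLN. Summed as 1 feature, the pair was at 263, 273 and 266 CPM in spleen and 315, 342 and 312 CPM in mLN. That sum rose by 0.27 on the log2 scale (standard error 0.0598, adjusted p = 0.00143, edgeR).

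**Figure D3:**
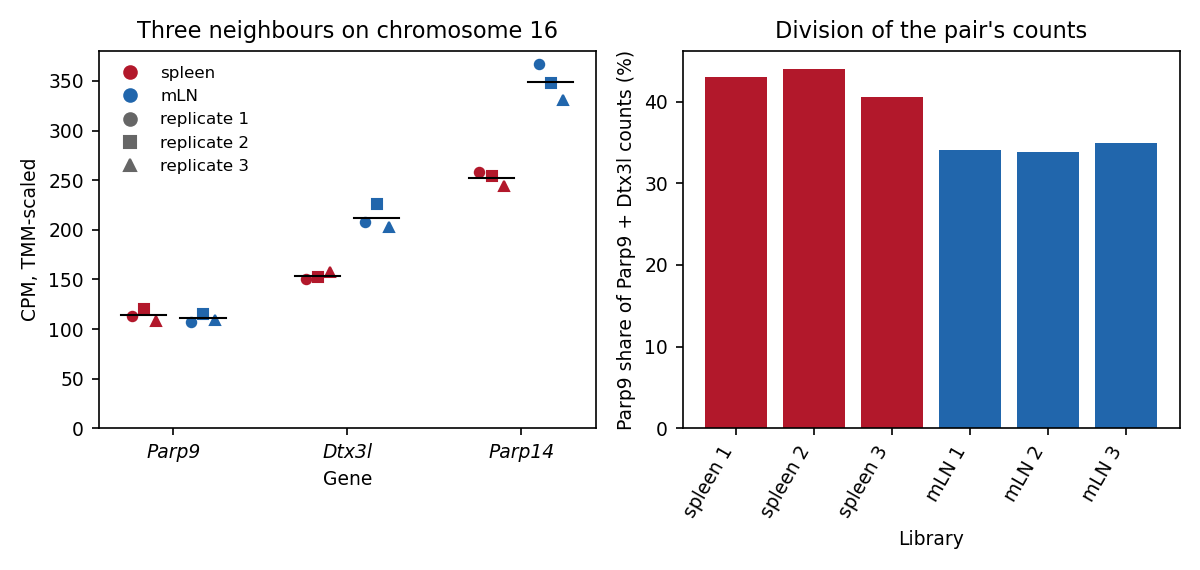
Left, CPM of Parp9, Dtx3l and Parp14 in each library (red spleen, blue mLN, black bars means of 3 libraries); right, the share of the summed Parp9 and Dtx3l expected counts that was assigned to Parp9, in percent, 1 bar per library. Parp9 stayed between 107 and 120 CPM in all libraries while Dtx3l and Parp14 were higher in every mLN library, and the Parp9 share was 40.6% to 44.0% in spleen and 33.9% to 35.0% in mLN.

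Fold changes in these libraries followed transcript length, and the members differ in length. Taken over genes (12486 tested, none of them an independent replicate), log2 fold change and transcript length had a Spearman rho of 0.370. Parp14 (7262 nt on average) and Parp4 (6045 nt) are among the long transcripts. Of the 577 tested genes within 1.25-fold of the length of Parp14, 43.7% were called higher in mLN, and of the 1075 around Parp4, 40.0%. The corresponding shares were 23.0% around Parp1 (3441 nt), 18.0% around Parp10 (2746 nt) and 17.6% around Parp12 (2688 nt). With a smooth trend on length removed from each library, the log2 fold change of Parp14 went from 0.47 to 0.19 (adjusted p = 0.0181) and that of Parp4 from 0.51 to 0.26 (adjusted p = 0.0154). Parp12, Parp10 and Parp1 moved less, to 0.61, 0.37 and 0.35, and all 5 members kept their calls in that edgeR fit. Parp9 was at -0.11 (adjusted p = 0.328) and Dtx3l went from 0.47 to 0.25, still past the test (adjusted p = 0.00607).

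**Figure D4:**
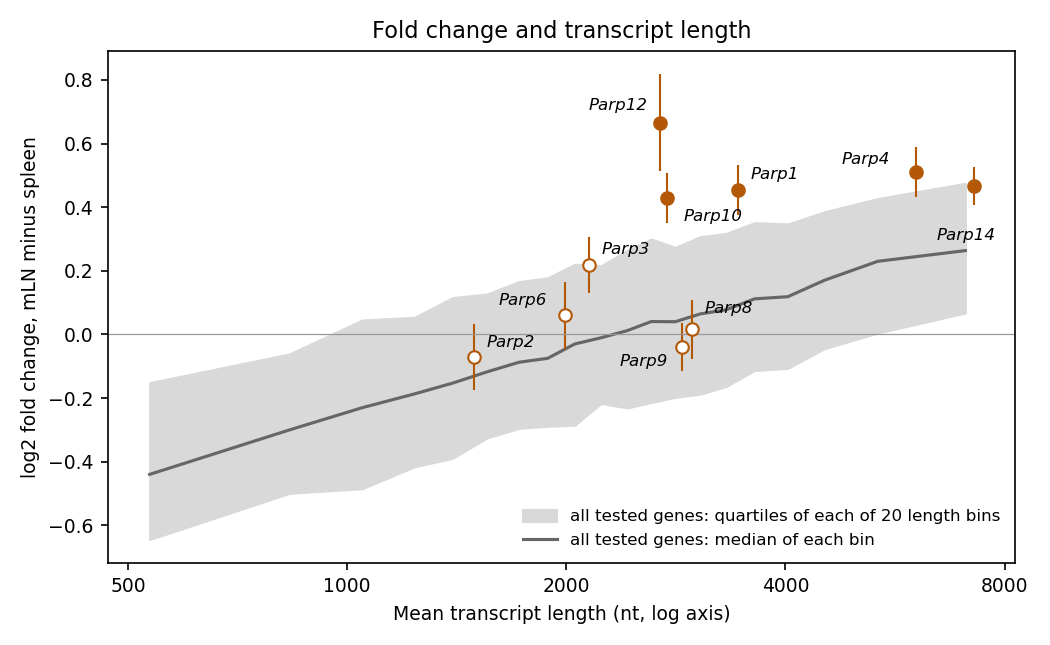
Log2 fold change (mLN minus spleen, bars 1 standard error) against mean transcript length in nucleotides on a log axis; filled points are members called by edgeR, open points are not, and the grey line and band are the median and quartiles of all tested genes in 20 bins of equal number. Of the 5 called members Parp12, Parp10, Parp1 and Parp4 lie above the upper quartile at their length and Parp14 does not, the median of all genes is itself above 0.2 at the lengths of Parp4 and Parp14, and Parp9 lies under the median at its length.

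**Figure D5:**
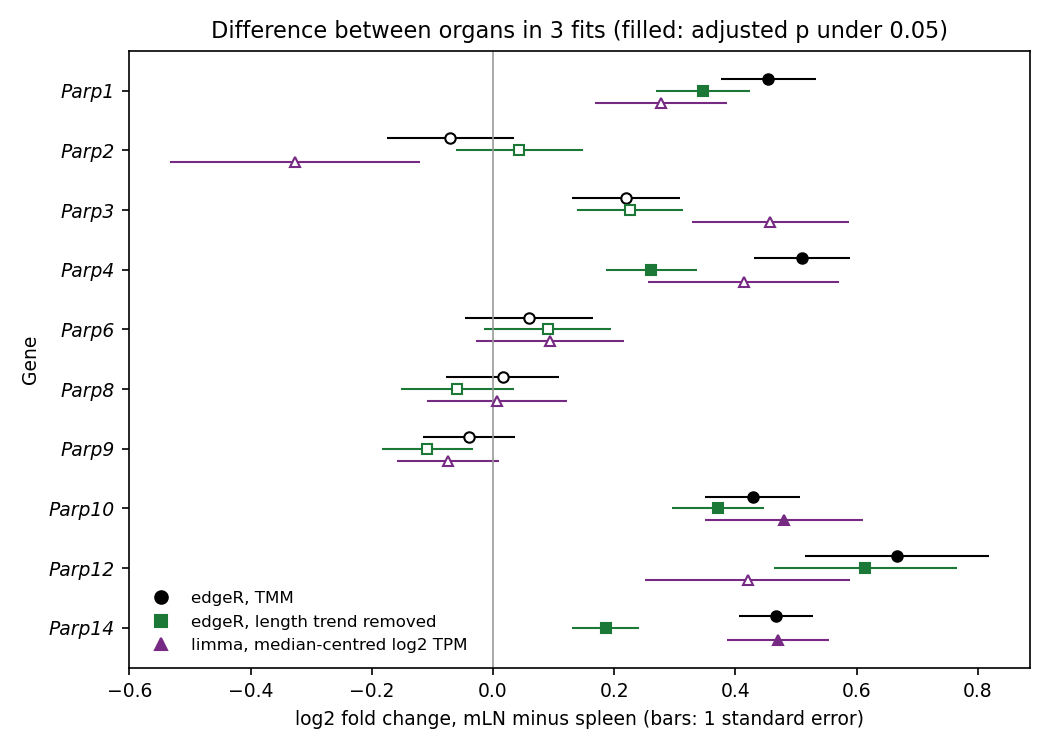
Log2 fold change of each member (mLN minus spleen, bars 1 standard error) in 3 fits; filled symbols passed an adjusted p of 0.05 and open ones did not. Parp10 and Parp14 passed in all 3, Parp14 at 0.47, 0.19 and 0.47, while Parp1, Parp4 and Parp12 passed in both edgeR fits and not on median-centred log2 TPM.

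By the deposited TPM, 9 of the 10 members (all but Parp2) were higher in every mLN library than in any spleen library and 0 were lower, where 35.1% and 6.22% of all tested genes were separated. On log2(TPM + 1), limma called 6 members higher (the 5 called on counts and Parp3) and 0 lower, against 22.2% and 3.08% of all tested genes. After each library was centred on its median, it called Parp10 and Parp14 higher and 0 members lower, against 6.45% and 7.69%. Summed over the 10 members, TPM was 361 ± 18.1 for spleen and 501 ± 11.7 for mLN (SD over 3 libraries), on the uncentred scale.

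Per unit of length, the members fell in the following order in each organ. In spleen the mean TPM ran from Parp9 (52.8 ± 3.36) through Parp2 (50.7 ± 16.6), Parp3 (50.6 ± 4.80), Parp10 (45.9 ± 7.20) and Parp14 (42.9 ± 1.35) to Parp1 (36.9 ± 3.21), all SD with n = 3. Below these came Parp6 (30.6 ± 4.06), Parp8 (23.5 ± 1.18), Parp4 (20.6 ± 3.89) and Parp12 (6.62 ± 0.612). The library values of the first 5 overlapped from neighbour to neighbour, and so did those of Parp8 and Parp4. In mLN the order began with Parp3 (83.5 ± 13.1), Parp10 (76.3 ± 7.32) and Parp14 (71.2 ± 4.65), which overlapped, and went on with Parp9 (59.5 ± 1.33) and Parp1 (53.5 ± 4.77), which were separate from their upper neighbour. Parp2 (46.2 ± 2.06) overlapped with Parp1. Parp6 (38.8 ± 2.60), Parp4 (32.9 ± 3.75) and Parp8 (28.2 ± 2.98) overlapped in turn, and Parp12 (11.1 ± 1.40) was again lowest. Places between overlapping neighbours are not resolved, and the level of Parp9 depends on the uncertain division of reads with Dtx3l. Against all tested genes Parp14 was at percentile 76.2 of mean TPM in spleen and 83.2 in mLN, and Parp12 at 32.9 and 38.8.

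Of the other genes of the family, 6 were tested. Of these, 2 rose and 0 fell, beside 16.1% and 13.5% of all tested genes. Zc3hav1, the zinc finger antiviral protein, which lacks catalytic activity, was at 344, 364 and 378 CPM in spleen and 466, 441 and 431 CPM in mLN (adjusted p = 5.36e-04, edgeR). Tnks, a tankyrase that marks proteins for destruction, was at 73.8, 77.5 and 70.5 CPM in spleen and 98.4, 95.4 and 90.1 CPM in mLN (adjusted p = 0.00229, edgeR). With the length trend removed both calls were lost, Zc3hav1 at 0.14 (adjusted p = 0.0723) and Tnks at 0.05 (0.719). Tnks2, Tiparp, Parp11 and Parp16 had log2 fold changes of 0.10, -0.09, -0.08 and -0.20, with adjusted p-values from 0.290 to 0.728.

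Of 12 genes that read ADP-ribose or work beside the PARPs, 5 were called higher, 1 lower and 6 did not pass, beside 16.1% and 13.5% of all tested genes. Besides Dtx3l, Tep1 and Mvp, the higher genes were H2afy, a histone variant whose macrodomain binds ADP-ribose, with means of 181 ± 17.1 (spleen) and 226 ± 6.05 CPM (mLN), and Timeless, a replication fork protein that binds PARP1, at 35.0 ± 3.89 and 47.8 ± 5.08 CPM (SD, n = 3 each). Their adjusted p-values were 0.00135 and 0.00452 (edgeR). Aplf, a repair factor that binds ADP-ribose chains, was at 8.20, 9.49 and 11.2 CPM in spleen and 6.38, 6.23 and 5.90 CPM in mLN (adjusted p = 0.0320, edgeR), a call kept only without spleen replicate 1 when libraries were left out in turn (0.0613 to 0.125 without another). The repair genes downstream of PARP1 did not pass on counts. Xrcc1, the scaffold recruited by the chains, had means of 24.1 ± 2.10 (spleen) and 29.9 ± 1.90 CPM (mLN; SD, n = 3 each; adjusted p = 0.0616, edgeR), Lig3 had an adjusted p of 0.201 and Polb of 0.147. Xrcc1 passed with the length trend removed (0.39, adjusted p = 0.0240) and on log2 TPM (0.0226), but not on median-centred log2 TPM (0.139). Hpf1, which directs PARP1 and PARP2 to serine, had a log2 fold change of -0.13 (adjusted p = 0.541).

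Counts for enzymes that remove ADP-ribose and enzymes that supply NAD+ stand beside 16.1% of all tested genes called higher and 13.5% lower. Of 6 tested erasers 0 rose and 1 fell. Adprh, which takes ADP-ribose off arginine, had means of 39.9 ± 4.02 (spleen) and 47.3 ± 3.65 CPM (mLN; SD, n = 3 each) and did not pass (adjusted p = 0.0898, edgeR). Parg, which cuts the chains, had means of 79.0 ± 7.65 (spleen) and 84.0 ± 5.50 CPM (mLN; SD, n = 3 each; adjusted p = 0.509, edgeR). On log2 TPM Adprh, Parg and Adprhl2, another eraser, passed (0.0267, 0.0373 and 0.04, limma). None of them passed on median-centred log2 TPM (0.255, 0.314 and 0.472, limma). Oard1, which takes off single units, fell to 0.791 of its spleen level (adjusted p = 0.0472, edgeR). Without 1 library its call was lost for spleen replicates 1 and 2 and mLN replicates 1 and 2 (0.0562 to 0.197). It was also lost with the length trend removed (log2 fold change -0.15, adjusted p = 0.423, edgeR) and with the GC trend removed (0.0878). Of 7 tested genes of NAD+ supply, 0 passed in edgeR, with adjusted p-values from 0.267 to 0.874, and Nampt, the rate-limiting enzyme of salvage, was at 58.1 ± 5.68 and 55.9 ± 6.88 CPM (SD, n = 3 each). The smallest p-values of that list belonged to genes at low levels. These were Nmnat1, an NAD+ synthase of the nucleus, at 4.47 ± 1.20 and 3.12 ± 0.472 CPM (adjusted p = 0.267), and Naprt, which starts NAD+ synthesis from nicotinic acid, at 1.23 ± 0.876 and 0.662 ± 0.148 CPM (adjusted p = 0.363, SD, n = 3 each, edgeR).

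Of 11 tested other consumers of NAD+, 1 rose and 0 fell, beside 16.1% and 13.5% of all tested genes. That gene was Art2b, an ecto-enzyme that ADP-ribosylates proteins on the T cell surface, at 129, 143 and 138 CPM in spleen and 175, 178 and 182 CPM in mLN (0.38 higher on the log2 scale, standard error 0.0686, adjusted p = 2.12e-04, edgeR). All mLN libraries exceeded all spleen libraries. Cd38, a surface NAD+ glycohydrolase that B cells also carry, was near the floor, at 3.68, 1.82 and 1.68 CPM in spleen and 0.0614, 0.601 and 1.34 CPM in mLN (adjusted p = 0.0563, edgeR; 0.0353 by DESeq2). The summed markers of B cells, of neutrophils, of monocytes and macrophages and of dendritic cells moved the same way. The part of these cells in it was not tested. The sirtuin genes Sirt1 to Sirt7 did not pass, with adjusted p-values from 0.0602 for Sirt7 to 0.970 for Sirt4. Sirt7 passed with the length trend removed (0.00961), without spleen replicate 3 (0.0120) and on log2 TPM (0.00731). On log2 TPM Sirt6 passed as well (0.0151, limma). Neither gene passed on median-centred log2 TPM (0.121 for Sirt7 and 0.0691 for Sirt6, limma). Sirt1, higher by 0.26, and Sirt2, lower with -0.28, passed with the GC trend removed (0.0181 and 0.0155).

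The relay through which interferons act on cells, given here because 4 members are its known targets, had 3 of 12 genes called higher and 2 lower, beside 16.1% and 13.5% of all tested genes. Irf7, a transcription factor that is itself induced by interferon, was at 60.8, 53.2 and 65.6 CPM in spleen and 84.7, 84.3 and 96.4 CPM in mLN (adjusted p = 9.08e-05, edgeR). Stat2 rose 1.25-fold (adjusted p = 0.00674) and the kinase gene Tyk2 1.20-fold (adjusted p = 0.0232), and both calls were lost with the length trend removed (0.0561 and 0.434). They also depended on single libraries, Stat2 without spleen replicate 2 (0.0586) and Tyk2 without spleen replicate 1 or 2 or mLN replicate 2 or 3 (0.0808 to 0.131). Ifngr1, a chain of the receptor for interferon gamma, was at 156, 140 and 146 CPM in spleen and 104, 101 and 92.1 CPM in mLN (adjusted p = 8.32e-06, edgeR). Irf1 fell to 0.881 of its spleen level (adjusted p = 0.0185, edgeR), a direction that turned on log2 TPM (0.13). The call of Irf1 was also lost without spleen replicate 2 or mLN replicate 1 or 2 (0.0583 to 0.0673). Irf9, a partner of interferon-activated transcription factors, had means of 155 ± 3.58 (spleen) and 161 ± 7.29 CPM (mLN; SD, n = 3 each) and did not pass (adjusted p = 0.639, edgeR).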

How the data were processed

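RNA sequencing data of 3 spleen and 3 mLN libraries of naive CD4+ T cells were used. Per the submitters' processing notes, the tools were STAR and RSEM and the genome build mm10, with no versions. Annotation release and strand setting: not given in the sources used here. Libraries came from a directional kit per the labels' protocols. The expected counts, as deposited, are gene totals estimated by RSEM without normalization, per the file headers. TPM values, also deposited, are scaled by effective length to a fixed total per library, and the deposited transcript lengths are weighted by isoform abundance, per the file headers. The deposited FPKM values were not used.

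Of 55487 gene identifiers, 55141 were given a symbol from a table of mouse gene names. Positions and exon overlaps came from GENCODE on GRCm38 (mm10), promoters from RefSeq. Adprs, Macroh2a1 and Art2a were matched as Adprhl2, H2afy and Art2a-ps. Expected counts were rounded, filtered with filterByExpr (12486 genes) and scaled by TMM. Organs were compared with the quasi-likelihood F test of edgeR (two-sided, robust, a single term for organ), and p-values were adjusted over all tested genes by Benjamini-Hochberg, with a threshold of 0.05. Standard errors were obtained by dividing the absolute log2 fold change by the root of F. The members and lists were chosen with earlier results of these data known; all 10 members are named, with at least the 2 genes of smallest p of each list. TPM was tested with limma on log2(TPM + 1). Trends were removed by lowess (span 0.3) entered as offsets. Scripts were tested on simulated data. Replicates differed by more than sampling noise (chi-square per degree of freedom 5.60 to 12.1). Alternatives are in the closing section; removal of a trend on GC content was added after seeing the data. Versions were edgeR 4.0.16, DESeq2 1.42.0 and limma 3.58.1 under R 4.3.3, and pandas 2.3.3, numpy 2.4.6 and matplotlib 3.10.9 under Python 3.11.15.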

Additional observations from a re-analysis of the deposited data

How the results depend on the processing

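Of the 5 called members, Parp10 and Parp14 kept direction and call in 19 of 19 alternatives, and Parp1, Parp4 and Parp12 in 18 of 19, the exception being median-centred log2 TPM, where 2 members were called higher. On that scale 805 genes of all tested were higher (6.45%) and 960 lower (7.69%), and 4 pathway genes (the other family genes, partners, erasers, NAD+ supply and consumers, with 8 higher and 2 lower of 42 tested in the main analysis) were higher and 1 lower. On log2 TPM 6 members were called higher, 385 genes of all were lower against 2772 higher (3.08% and 22.2%), and 13 pathway genes were higher and 0 lower. Upper-quartile factors gave 1692 higher and 2046 lower over all genes. At a threshold of 0.01, 1069 genes were lower and 0 pathway genes. With the length trend removed 1 pathway gene was lower, and with the GC trend removed the log2 fold change of Parp10 went from 0.43 to 0.27 (adjusted p = 0.00118). Irf1 turned from -0.18 to 0.13 on log2 TPM (adjusted p = 0.125). The cause of these changes was not tested. With a library left out in turn, 5 to 6 members were higher and 0 lower, with 1500 to 1970 genes higher and 1324 to 1710 lower over all genes, and 7 to 9 pathway genes higher and 0 to 2 lower.

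With the replicate number as a block, 6 members were higher (Parp3 at 0.22, adjusted p = 0.00579), 2566 genes of all were higher and 2140 lower, and 12 pathway genes were higher and 4 lower. Whether same-numbered libraries belong together cannot be told from these values. The correlations of their deviations from the group means were 0.0223, 0.0023 and 0.0652. For differently numbered libraries they ran from -0.0456 to 0.0238, and not every library correlated best with its own number. Depth limits the low genes, since Parp12 rests on 182 to 432 counts a library and Cd38 on 1 to 52.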
